A study of Homo sapiens with 24 samples.

Results

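The genes described here are those of the amino acid and integrated stress response, ATF4 with its known targets, read in 2 human breast cancer lines treated with the small molecule ID8. A list of 33 such genes was taken, with amino acid transporters left out, and each gene was read from the probe set that names it alone and has the highest mean over the 24 arrays. This gave values for 31 of the 33, among 22395 named genes on the array. ATF5 was not read because its probe set also names a microRNA, and GPT2 has no probe set under its name in the annotation used here. The list, and the question whether ID8 moves these genes in opposite directions in the lines, were chosen with earlier results of the same arrays known.

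T47D cells are luminal and express the oestrogen receptor, whereas SUM159 cells are mesenchymal in type and are negative for hormone receptors and HER2. Cells received 5 µM ID8 or its vehicle DMSO for 3 days and were then sorted into Aldefluor+ and Aldefluor- fractions, by the fluorescence that aldehyde dehydrogenase activity produces. The 8 groups were, in each of T47D and SUM159, Aldefluor+ cells with ID8, Aldefluor+ cells with DMSO, Aldefluor- cells with ID8 and Aldefluor- cells with DMSO, with 3 arrays each. Every group held 1 array from each of 3 separate experiments, numbered 5, 6 and 7 for T47D and 2, 3 and 4 for SUM159. All SUM159 cultures, with either treatment, grew in a medium with insulin and hydrocortisone that the T47D medium is not stated to contain. The labels do not say whether the experiments began from separately thawed cells, so p-values measure the spread between these arrays.

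Values are log2 signals that the authors had already adjusted for batch, and each experiment held 1 line. The largest difference between the lines among their typical markers was only 1.17, so levels are compared within a line only. All 14 markers typical of T47D were higher in T47D, and all 12 typical of SUM159 were higher in SUM159. Immune markers were below a log2 signal of 2 in 7 of 8 cases and endothelial markers in 6 of 7, with group means between 1.37 and 1.53 and between 1.22 and 1.46, and none passed in any of the 15 comparisons made. The Aldefluor+ DMSO array of SUM159 experiment 4 stood apart, with an interquartile range of 2.05 against 2.17 to 2.33 in the other 23 arrays. Some counts, medians and named genes are also given without it. Counts and medians by role, counts at an unadjusted p and counts of separate arrays are given with it only. Arrays have no read depth, so their number and the signal over background limit precision. Signal was low for 49.0% of named genes, with a mean below 2, and among the genes described here this held for VLDLR (1.51) and FGF21 (1.70).

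ATF4 is a transcription factor whose messenger RNA is translated more when the initiation factor eIF2 is phosphorylated by kinases that sense amino acid shortage, endoplasmic reticulum stress, viral RNA or haem shortage. With C/EBP family partners it binds composite C/EBP-ATF elements and activates genes for amino acid synthesis, mitochondrial one-carbon metabolism, feedback on translation and mTORC1, and secreted stress hormones. Because ATF4 is controlled largely at translation, its own messenger level need not follow its activity, and its targets are the usual readout.

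Promoter sequence, from 250 bases before to 50 after an annotated transcript start, was found for 26 of the 33 listed genes in RefSeq (GRCh38.p14), taking the first start listed where a gene has several, as ASNS does, and not for NUPR1, EIF4EBP1, PSPH, GPT2, PYCR1, SHMT2 and ALDH1L2. The core of the C/EBP-ATF element was searched as TGATGNAA on both strands. It was present in 4 of these 26 promoters (15.4%), those of ATF3, ASNS, CHAC1 and FGF21, and in 1003 of 27305 promoters of all genes (3.67%). The cyclic AMP response element TGACGTCA, which shares no full copy with the first motif, was in 1 of 26 (3.85%), that of PPP1R15A at position -58, and in 540 of all (1.98%). The bases before the start are shown for STC2 and DDIT4, the 2 genes whose ID8 response differed between the lines, and for ASNS and CHAC1, which carry the core, in capitals. Positions are chr5:173328415-173328664 (minus strand) for STC2, chr10:72273674-72273923 (plus) for DDIT4, chr7:97872409-97872658 (minus) for ASNS and chr15:40953221-40953470 (plus) for CHAC1.
STC2: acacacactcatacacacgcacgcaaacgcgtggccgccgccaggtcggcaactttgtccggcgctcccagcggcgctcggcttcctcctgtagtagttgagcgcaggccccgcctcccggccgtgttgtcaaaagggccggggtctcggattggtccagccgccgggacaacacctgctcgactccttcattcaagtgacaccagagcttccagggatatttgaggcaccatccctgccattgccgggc
DDIT4: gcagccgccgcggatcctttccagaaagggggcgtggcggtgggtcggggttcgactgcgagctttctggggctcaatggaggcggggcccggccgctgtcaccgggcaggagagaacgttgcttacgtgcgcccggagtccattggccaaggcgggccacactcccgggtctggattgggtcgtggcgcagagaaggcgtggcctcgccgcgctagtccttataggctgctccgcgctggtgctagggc
ASNS: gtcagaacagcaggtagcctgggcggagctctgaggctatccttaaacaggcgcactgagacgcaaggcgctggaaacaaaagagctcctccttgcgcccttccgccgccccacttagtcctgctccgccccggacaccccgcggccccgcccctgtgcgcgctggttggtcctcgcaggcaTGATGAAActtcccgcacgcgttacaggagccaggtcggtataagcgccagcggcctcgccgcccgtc
CHAC1: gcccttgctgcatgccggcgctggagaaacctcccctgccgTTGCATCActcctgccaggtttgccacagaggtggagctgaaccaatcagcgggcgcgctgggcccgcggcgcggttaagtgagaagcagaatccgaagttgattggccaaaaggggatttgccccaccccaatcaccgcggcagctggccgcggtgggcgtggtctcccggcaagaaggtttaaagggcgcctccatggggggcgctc
The site in ASNS begins at position -68 and reads TGATGAAA on the strand of the gene. That in CHAC1 begins at -209 and reads TGATGCAA on the opposite strand, so it appears above as its reverse complement. Neither motif was found in the whole windows of STC2 and DDIT4. A match is a run of letters in this window and was not measured here as a bound site.

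With ID8, 24 of the 31 genes lay above 0 in T47D and 8 lay above 0 in SUM159, when the ID8 minus DMSO difference was averaged over both fractions. Among all named genes 48.4% lay above 0 in T47D and 47.9% in SUM159. The median log2 difference of the genes was 0.14 in T47D and -0.11 in SUM159, against medians of -0.0059 and -0.0087 over all genes. The SUM159 median was -0.053 without experiment 3, -0.208 without experiment 4 and -0.158 without the array that stood apart, where 6 genes lay above 0. After adjustment over all genes (limma, Benjamini-Hochberg, adjusted p under 0.05), STC2 and GDF15 rose in T47D, 2 of 31 where 0.505% of all genes were called in either direction. No gene of the list passed in SUM159, where 0.688% of all genes did. At an unadjusted limma p under 0.05, 10 of 31 were higher and 0 lower in T47D (5.41% and 5.44% of all genes). In SUM159, 0 were higher and 9 lower (5.26% and 6.06% of all genes). Each array measured RNA from many sorted cells, so fewer cells with a transcript and less transcript per cell cannot be told apart. In a limma fit without the experiment as a block, 4 genes passed in T47D and 4 in SUM159, but that fit counts degrees of freedom that the batch adjustment had used.

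Within single fractions no member passed the adjusted limma test. In Aldefluor+ cells, all genes were called at 0.375% in T47D and 0.241% in SUM159, and in Aldefluor- cells at 0.0179% in T47D and 0.277% in SUM159. At an unadjusted limma p under 0.05, 8 members were higher and 0 lower in T47D Aldefluor+ cells (5.31% and 5.46% of all genes). In SUM159 Aldefluor+ cells 0 were higher and 7 lower (4.88% and 5.43%). In Aldefluor- cells, 6 were higher and 0 lower in T47D (3.4% and 3.21%), and 0 were higher and 3 lower in SUM159 (3.73% and 4.3%). The median of the 31 was 0.15 in T47D Aldefluor+ cells and 0.17 in T47D Aldefluor- cells, against -0.18 in SUM159 Aldefluor+ cells and -0.06 in SUM159 Aldefluor- cells. The SUM159 Aldefluor+ median was -0.271 without the array that stood apart, -0.107 without experiment 3 and -0.296 without experiment 4. The SUM159 Aldefluor- median was -0.104 without experiment 2 and -0.036 without experiment 4. Of the 31, 7 lay above 0 in SUM159 Aldefluor+ cells (48.3% of all genes), and 4 without the array that stood apart or 10 without experiment 3. Without that array, 5 genes changed sign there, DDIT3 to -0.16, GDF15 to -0.15, PHGDH to -0.12, CBS to -0.24 and ALDH18A1 to 0.02.

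**Figure D1:**
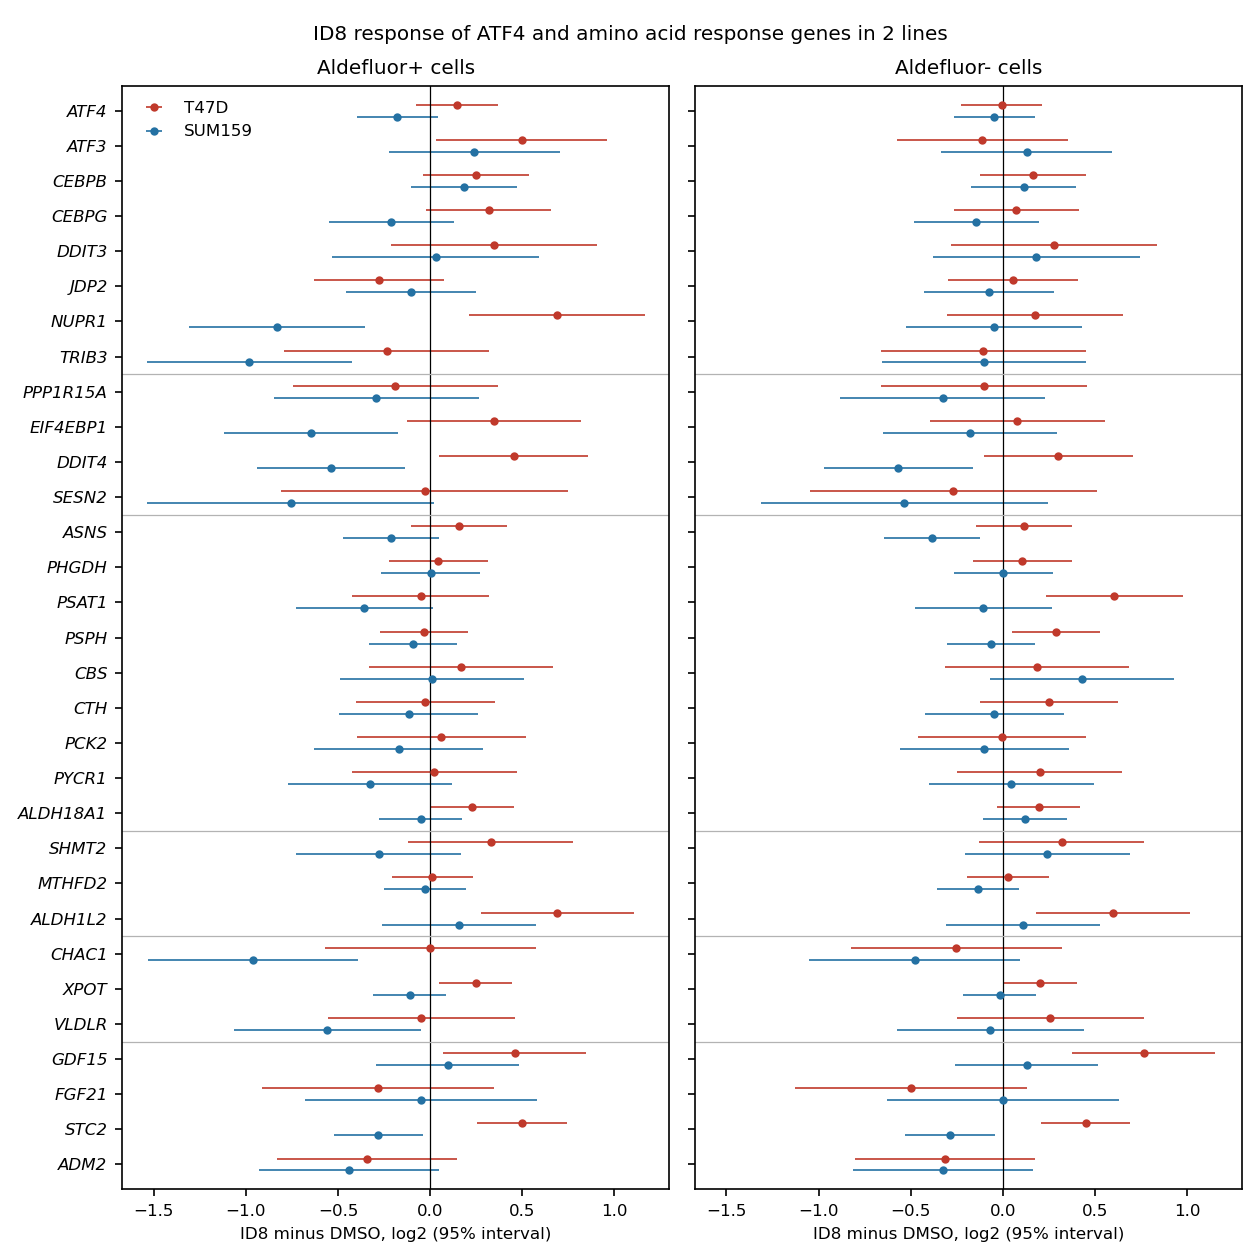
ID8 minus DMSO difference (log2, points, with 95% intervals as bars) of the 31 genes in T47D (red) and SUM159 (blue), in Aldefluor+ cells (left) and Aldefluor- cells (right), grouped by role from regulators at the top to secreted proteins at the bottom. In Aldefluor+ cells the T47D point lies to the right of the SUM159 point for 29 of 31 genes, and in Aldefluor- cells for 27 of 31.

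The lines differed most clearly in STC2, which encodes stanniocalcin 2, a secreted glycoprotein induced by stress of the endoplasmic reticulum. In T47D Aldefluor+ cells its log2 signal was 6.95, 6.99 and 6.84 with ID8, against 6.31, 6.42 and 6.56 with DMSO (experiments 5, 6 and 7). In T47D Aldefluor- cells it was 7.01, 6.93 and 6.89 with ID8 and 6.56, 6.49 and 6.43 with DMSO. All 6 ID8 arrays of T47D lay above all 6 DMSO arrays. In SUM159 the ID8 arrays were the lower ones. The Aldefluor+ arrays had 6.51, 6.34 and 6.22 with ID8, against 6.68, 6.69 and 6.54 with DMSO (experiments 2, 3 and 4), and the Aldefluor- arrays had 6.46, 6.62 and 6.51 with ID8, against 6.86, 6.68 and 6.92 with DMSO. Within each SUM159 fraction the ID8 and DMSO arrays did not overlap.

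Averaged over the fractions, STC2 rose 1.39-fold with ID8 in T47D (log2 0.47 ± 0.0812 SE, 95% interval 0.301 to 0.646, n = 3 experiments, limma adjusted p = 0.0125). In SUM159 the difference was -0.28 ± 0.0812 (limma adjusted p = 0.143). The T47D response minus the SUM159 response was 0.76 ± 0.115 (interval 0.515 to 1.00, limma adjusted p = 0.00532), with 0.78 in Aldefluor+ cells and 0.74 in Aldefluor- cells. Here STC2 and DDIT4 passed, 2 of 31 genes, where 0.647% of all genes did. The T47D call was lost without experiment 5, 6 or 7 (0.44, 0.46 and 0.53, limma adjusted p = 0.24, 0.25 and 0.109) and in a fit of the T47D arrays alone (adjusted p = 0.0662). The line difference stayed between 0.719 and 0.811 over the 6 fits that left out an experiment, and its limma adjusted p was 0.0541 without experiment 5 and 0.0654 without experiment 6. STC2 was the only member that was higher with ID8 in all 6 T47D pairs of one experiment and fraction and lower in all 6 SUM159 pairs, which 0.156% of all genes were.

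**Figure D2:**
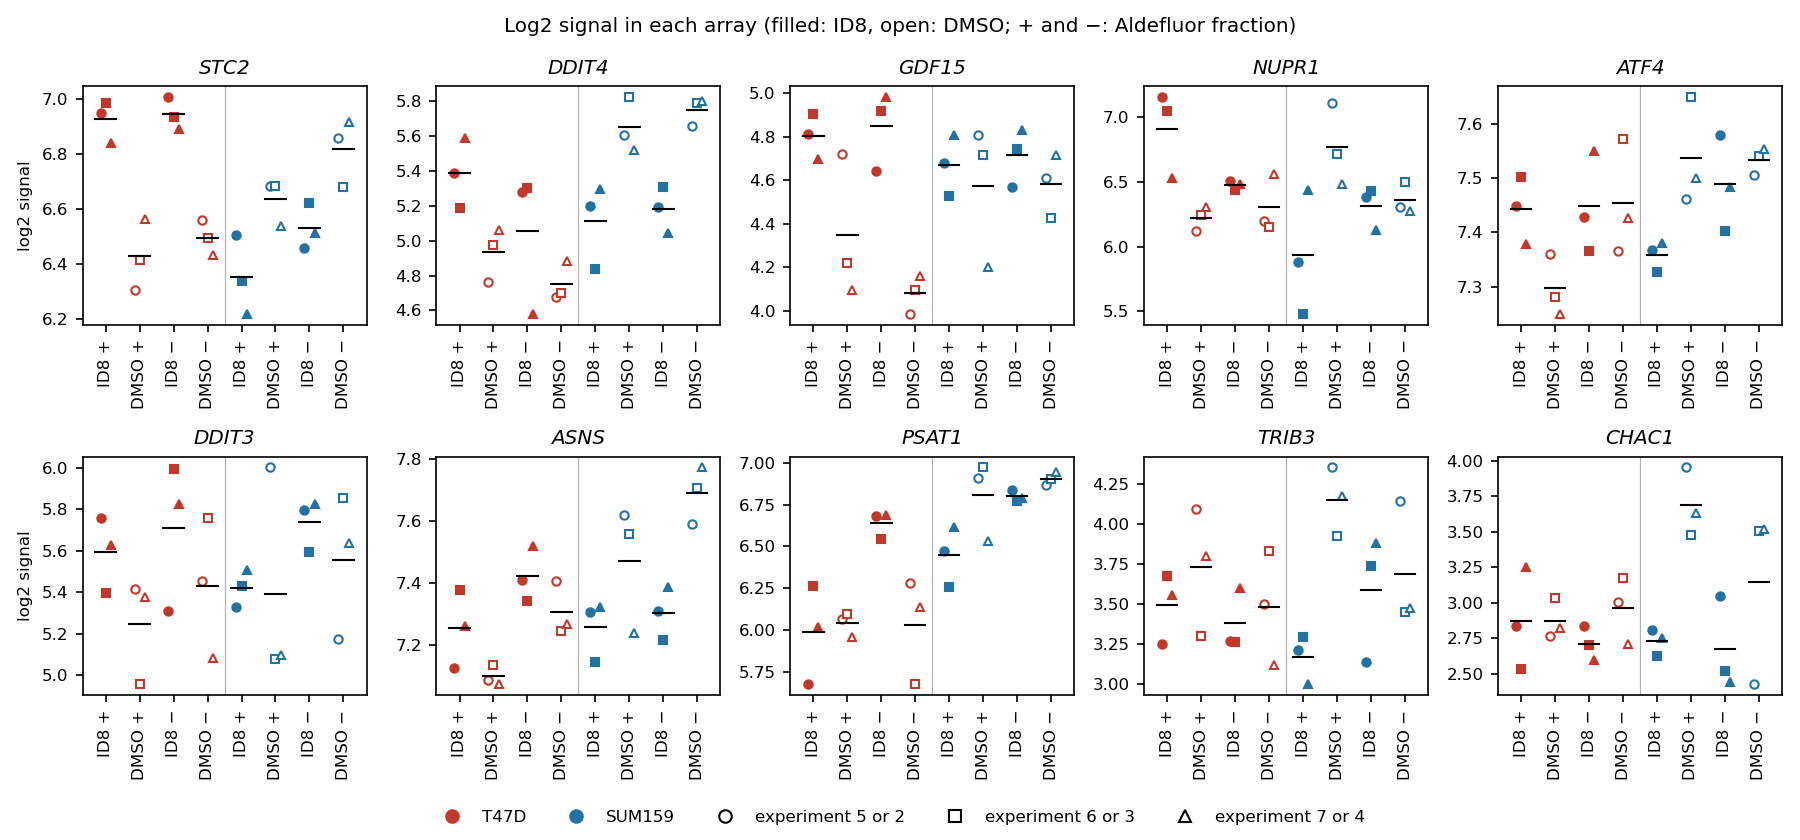
Log2 signal of 10 genes in each array, with T47D in red and SUM159 in blue, filled symbols for ID8, open symbols for DMSO, + and − for the Aldefluor fraction, symbol shape for the experiment and a bar for the mean of 3 arrays. STC2 lies at 6.84 to 7.01 in the 6 T47D ID8 arrays, against 6.31 to 6.56 in the 6 T47D DMSO arrays.

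DDIT4, also called REDD1, inhibits mTORC1 under stress and is known to be induced by ATF4, by hypoxia and by glucocorticoids. In T47D Aldefluor+ cells its signal was 5.39, 5.19 and 5.59 with ID8, against 4.76, 4.97 and 5.06 with DMSO, and in T47D Aldefluor- cells 5.28, 5.30 and 4.58 with ID8, against 4.68, 4.70 and 4.88 with DMSO. The Aldefluor+ arrays did not overlap, and in the Aldefluor- fraction 1 ID8 array (experiment 7) lay below all 3 DMSO arrays. In SUM159 it was 5.20, 4.84 and 5.30 with ID8 and 5.61, 5.82 and 5.52 with DMSO in Aldefluor+ cells. In SUM159 Aldefluor- cells it was 5.19, 5.31 and 5.05 with ID8 and 5.66, 5.79 and 5.80 with DMSO. All 6 SUM159 ID8 arrays lay below all 6 SUM159 DMSO arrays. The mean difference was 0.38 ± 0.135 SE in T47D (limma adjusted p = 0.283) and -0.55 ± 0.135 in SUM159 (adjusted p = 0.0757), neither past the threshold. Their difference, T47D minus SUM159, was 0.93 ± 0.19 (interval 0.526 to 1.33, limma adjusted p = 0.0343). That call was lost without experiment 2, 3, 4, 5 or 6 (0.812 to 0.988, limma adjusted p from 0.109 to 0.198) and held without experiment 7 (1.06, adjusted p = 0.0272). It was also lost when all probe sets, named or not, were tested (adjusted p = 0.0791).

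**Figure D3:**
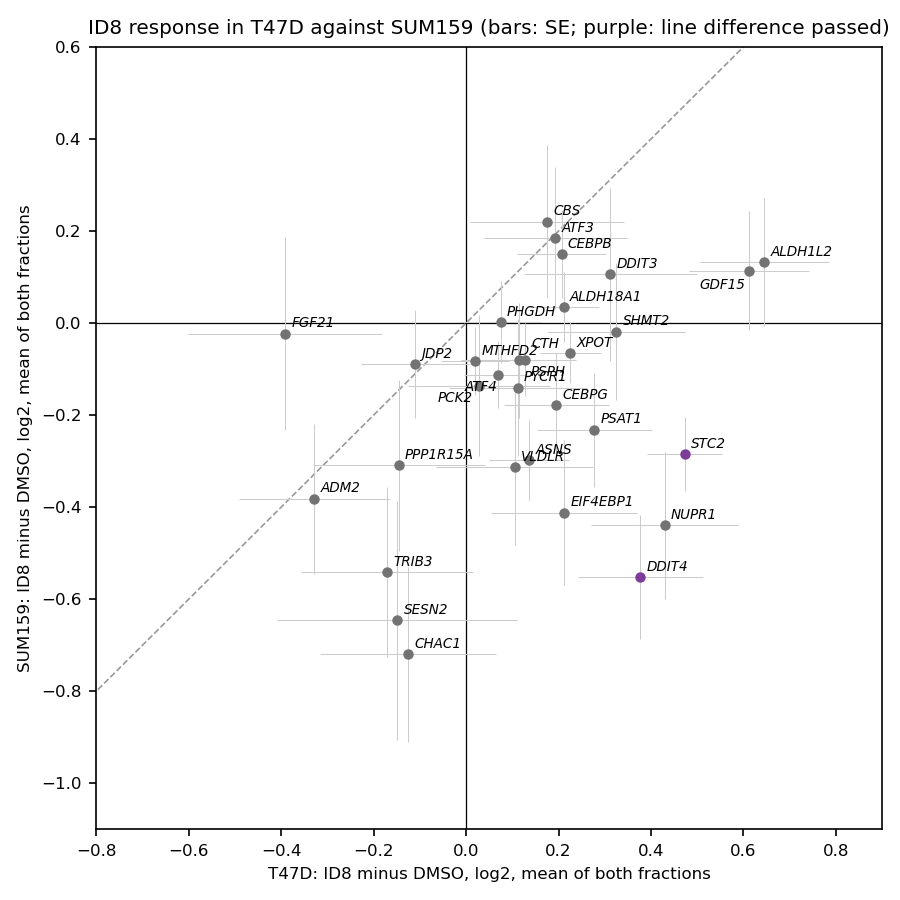
ID8 minus DMSO difference of each of the 31 genes averaged over both fractions (log2), in T47D on the horizontal axis and SUM159 on the vertical axis, with SE bars and a dashed line of equal response. Of the 31 points, 28 lie below the dashed line, and the line difference passed for STC2 and DDIT4 (purple).

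GDF15, a secreted hormone of the TGF-beta family that rises in many forms of cell stress, was the other gene that rose in T47D. Its signal in T47D Aldefluor+ cells was 4.81, 4.91 and 4.70 with ID8, against 4.72, 4.22 and 4.10 with DMSO. In T47D Aldefluor- cells it was 4.64, 4.92 and 4.98 with ID8 and 3.99, 4.10 and 4.16 with DMSO. The Aldefluor- arrays did not overlap, and in the Aldefluor+ fraction 1 DMSO array (experiment 5) lay among the ID8 arrays. The mean difference was 0.61 ± 0.13 SE, 1.53-fold (limma adjusted p = 0.0472), higher in all 6 pairs. SUM159 Aldefluor+ cells had 4.68, 4.53 and 4.81 with ID8, against 4.81, 4.71 and 4.20 with DMSO. SUM159 Aldefluor- cells had 4.57, 4.74 and 4.83 with ID8, against 4.61, 4.43 and 4.72 with DMSO. The groups overlapped in both SUM159 fractions. The SUM159 difference was 0.11 ± 0.13, but -0.01 both without experiment 4 and without the array that stood apart, and the line difference 0.50 ± 0.183 (limma adjusted p = 0.302), so the T47D call was not shown to differ between lines. The T47D call was lost without any of experiments 2, 3, 5, 6 and 7 (limma adjusted p from 0.0776 to 0.427), in T47D arrays alone (0.101) and over all probe sets (0.102). Experiments 2 and 3 are of SUM159, so without them the T47D difference was the same. Only the spread shared by the groups and the adjustment over genes changed there.

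The other secreted members did not pass. ADM2, the peptide adrenomedullin 2, had -0.34 in T47D Aldefluor+ cells, -0.31 in T47D Aldefluor- cells, -0.44 in SUM159 Aldefluor+ cells and -0.32 in SUM159 Aldefluor- cells, below 0 in both lines. Its mean signal was only 2.33, and it was 1.94 in SUM159 Aldefluor+ cells with ID8, below the low-signal level of 2. FGF21, a metabolic hormone, had -0.28 and -0.50 in the T47D Aldefluor+ and Aldefluor- fractions and -0.05 and 0.00 in those of SUM159, at a low signal. It was 1 of only 3 genes of the list, with CBS and JDP2, whose averaged line difference lay below 0 (-0.37, -0.05 and -0.02), and without the array that stood apart CBS had 0.08 and JDP2 0.03.

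Among the 8 regulators measured, 6 lay above 0 in T47D and 3 in SUM159 in the average of fractions, and 0 of 8 passed. ATF4 itself had 7.45, 7.50 and 7.38 in T47D Aldefluor+ cells with ID8, against 7.36, 7.28 and 7.25 with DMSO, and 7.43, 7.37 and 7.55 in T47D Aldefluor- cells with ID8, against 7.36, 7.57 and 7.43 with DMSO. In SUM159 Aldefluor+ cells it had 7.37, 7.33 and 7.38 with ID8, against 7.46, 7.65 and 7.50 with DMSO, and in SUM159 Aldefluor- cells 7.58, 7.40 and 7.48, against 7.51, 7.54 and 7.55. The Aldefluor+ arrays did not overlap in either line, ID8 above DMSO in T47D and below it in SUM159, while the Aldefluor- arrays overlapped in both. These differences were 0.15 and -0.18, and the line difference of 0.32 ± 0.147 SE in Aldefluor+ cells did not pass (limma adjusted p = 0.42).

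DDIT3, the C/EBP-related factor CHOP, had 5.76, 5.39 and 5.63 in T47D Aldefluor+ cells with ID8, against 5.41, 4.95 and 5.37 with DMSO. Its T47D Aldefluor- arrays had 5.31, 5.99 and 5.83 with ID8 and 5.45, 5.76 and 5.08 with DMSO. The groups overlapped in both fractions. SUM159 Aldefluor+ cells had 5.33, 5.43 and 5.51 with ID8 and 6.00, 5.08 and 5.10 with DMSO, and SUM159 Aldefluor- cells 5.80, 5.59 and 5.82 with ID8 and 5.18, 5.86 and 5.64 with DMSO, which overlapped as well. The brighter DDIT3 probe set, used here, gave ID8 differences of 0.029 to 0.346, and a second one, at a mean of only 0.839, gave -0.189 to -0.018, so the 2 disagree in sign.

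TRIB3, a pseudokinase that feeds back on ATF4 and DDIT3, had the most negative ID8 difference of the list in any fraction. SUM159 Aldefluor+ cells had 3.22, 3.29 and 3.00 with ID8, against 4.35, 3.93 and 4.18 with DMSO, without overlap (-0.98 ± 0.262 SE, limma adjusted p = 0.155). SUM159 Aldefluor- cells had 3.14, 3.74 and 3.88 with ID8 and 4.14, 3.45 and 3.47 with DMSO, which overlapped, at -0.10. T47D arrays overlapped in both fractions, with 3.25, 3.68 and 3.56 in Aldefluor+ cells with ID8, against 4.09, 3.30 and 3.80 with DMSO, and 3.27, 3.26 and 3.60 in Aldefluor- cells with ID8, against 3.50, 3.83 and 3.12 with DMSO.

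NUPR1, a small chromatin-associated stress protein, had the largest line difference in Aldefluor+ cells, and its array values are given although that choice was made after they were seen. T47D Aldefluor+ cells had 7.15, 7.04 and 6.53 with ID8, against 6.12, 6.24 and 6.31 with DMSO, and SUM159 Aldefluor+ cells had 5.88, 5.48 and 6.43 with ID8, against 7.11, 6.71 and 6.48 with DMSO. All ID8 arrays lay above the DMSO arrays in T47D and below them in SUM159. The line difference was 1.52 ± 0.319 SE (interval 0.843 to 2.19, limma adjusted p = 0.0549), and it was 0.22 in Aldefluor- cells. Without the SUM159 array that stood apart it was 1.70 (limma adjusted p = 0.0438), without experiment 4 it was 1.91 (adjusted p = 0.017), and with genes of mean signal below 2 left out the adjusted p was 0.0296. Without experiment 4, EIF4EBP1 passed too (1.38, limma adjusted p = 0.0308). The fit without the block also called NUPR1, DDIT4 and STC2 in this comparison.

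The remaining regulators did not pass. CEBPG, a C/EBP family partner of ATF4, had 0.32 and 0.07 in the Aldefluor+ and Aldefluor- fractions of T47D and -0.21 and -0.14 in those of SUM159. CEBPB, another C/EBP factor, lay above 0 in all 4 comparisons, between 0.11 and 0.25. ATF3, an early stress-induced repressor, had 0.50 in T47D Aldefluor+ cells, with no overlap of ID8 and DMSO arrays, and -0.11 in T47D Aldefluor- cells. JDP2, a basic leucine zipper repressor, ranged from -0.28 to 0.05.

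The genes that control translation and mTORC1 were the group with the lowest median in SUM159, where all 4 members lay below 0 in both fractions (median of the average -0.48, against 0.03 in T47D, where 2 of 4 lay above 0). EIF4EBP1, which represses cap-dependent translation when mTORC1 is inactive, had 0.34 in T47D Aldefluor+ cells and 0.08 in T47D Aldefluor- cells, against -0.65 in SUM159 Aldefluor+ cells and -0.18 in SUM159 Aldefluor- cells. Its SUM159 Aldefluor+ pairs were -0.94, -1.13 and 0.13 in experiments 2, 3 and 4. SESN2, a leucine sensor that restrains mTORC1, had -0.03 in T47D Aldefluor+ cells and -0.27 in T47D Aldefluor- cells, against -0.76 in SUM159 Aldefluor+ cells and -0.53 in SUM159 Aldefluor- cells. PPP1R15A, the GADD34 subunit that directs dephosphorylation of eIF2, lay between -0.33 and -0.10 in the 4 comparisons. Only DDIT4, described above, passed a test, and only that of the line difference.

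Amino acid synthesis enzymes lay above 0 in T47D in 9 of 9 cases, with small differences (median 0.13), and in SUM159 in 3 of 9 (median -0.08), and 0 of 9 passed. ASNS, asparagine synthetase, had 7.13, 7.38 and 7.26 in T47D Aldefluor+ cells with ID8, against 7.09, 7.14 and 7.08 with DMSO, and 7.41, 7.34 and 7.52 in T47D Aldefluor- cells with ID8, against 7.41, 7.25 and 7.27 with DMSO. Both pairs of groups overlapped. SUM159 Aldefluor+ cells had 7.31, 7.15 and 7.32 with ID8, against 7.62, 7.56 and 7.24 with DMSO, which overlapped through the DMSO array of experiment 4. SUM159 Aldefluor- cells had 7.31, 7.22 and 7.39 with ID8 and 7.59, 7.71 and 7.77 with DMSO, without overlap (-0.38 ± 0.123 SE, limma adjusted p = 0.339). Averaged over fractions the SUM159 difference was -0.30 ± 0.0868 (limma adjusted p = 0.151), and without the array that stood apart it was -0.38 (adjusted p = 0.0446). The line difference was 0.44 ± 0.123 (limma adjusted p = 0.142), and 0.51 without that array (adjusted p = 0.0455).

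The serine branch was uneven. PHGDH, which makes its first step, had 0.04 and 0.11 in T47D and 0.00 in both fractions of SUM159. PSAT1, the aminotransferase of the second step, was chosen for its array values after they were seen. T47D Aldefluor- cells had 6.68, 6.54 and 6.69 with ID8, against 6.28, 5.68 and 6.14 with DMSO, without overlap (0.61 ± 0.175 SE, limma adjusted p = 0.467). T47D Aldefluor+ cells had 5.68, 6.26 and 6.02 with ID8 and 6.07, 6.09 and 5.96 with DMSO, which overlapped (-0.05). The ID8 response thus differed by -0.66 ± 0.248 between the Aldefluor+ and Aldefluor- fractions of T47D, which did not pass (limma adjusted p = 0.766). PSPH, the phosphatase of the last step, had -0.03 and 0.29 in the Aldefluor+ and Aldefluor- fractions of T47D and -0.09 and -0.06 in those of SUM159, and has near-identical copies in the genome that its probes may share. In the proline branch, ALDH18A1 was higher with ID8 in all 6 T47D pairs (0.21 ± 0.0758 averaged, limma adjusted p = 0.286) and PYCR1 had 0.11 in T47D and -0.14 in SUM159. CTH and CBS, the transsulfuration enzymes, had 0.11 and 0.18 in T47D and -0.08 and 0.22 in SUM159, with CBS uncertain because of its near-identical copy CBSL. Without the array that stood apart the SUM159 values of CTH and CBS were -0.16 and 0.09. PCK2, mitochondrial phosphoenolpyruvate carboxykinase, had 0.03 in T47D and -0.14 in SUM159 (-0.22 without that array).

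Of the 3 mitochondrial one-carbon enzymes, all lay above 0 in T47D (median 0.33) and 1 in SUM159 (median -0.02). ALDH1L2, the mitochondrial formyltetrahydrofolate dehydrogenase, had the largest T47D average of the whole list, 0.65 ± 0.139 SE, and missed the threshold (limma adjusted p = 0.0521). Its T47D values, given after they were seen, were 4.13, 4.22 and 3.86 in Aldefluor+ cells with ID8, against 3.52, 3.11 and 3.50 with DMSO, and 3.72, 3.91 and 3.99 in Aldefluor- cells with ID8, against 3.16, 3.44 and 3.23 with DMSO. All 6 ID8 arrays lay above all 6 DMSO arrays. It passed when genes of mean signal below 2 were left out (limma adjusted p = 0.0281) and without the experiment block (adjusted p = 0.00665). In SUM159 its average was 0.13, and the line difference of 0.51 ± 0.197 did not pass (limma adjusted p = 0.33). SHMT2, mitochondrial serine hydroxymethyltransferase, had 0.32 in T47D and -0.02 in SUM159 (-0.20 without the array that stood apart). MTHFD2, the folate dehydrogenase and cyclohydrolase next to it, had 0.02 in T47D and -0.08 in SUM159.

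CHAC1, which degrades glutathione, had the lowest SUM159 average of the list, -0.72 ± 0.191 SE (limma adjusted p = 0.109). SUM159 Aldefluor+ cells had 2.80, 2.62 and 2.75 with ID8, against 3.95, 3.48 and 3.63 with DMSO, without overlap. SUM159 Aldefluor- cells had 3.05, 2.52 and 2.44 with ID8 and 2.42, 3.50 and 3.52 with DMSO, where the DMSO array of experiment 2 was the lowest of the 6. Without experiment 2 the SUM159 average was -0.95 and passed (limma adjusted p = 0.0285). T47D arrays overlapped, with 2.84, 2.53 and 3.25 in Aldefluor+ cells with ID8, against 2.76, 3.03 and 2.82 with DMSO, and 2.84, 2.70 and 2.60 in Aldefluor- cells with ID8, against 3.00, 3.17 and 2.71 with DMSO. XPOT, the exporter of transfer RNA, was the member with the highest signal, and it was higher with ID8 in all 6 T47D pairs (0.23 ± 0.0661 averaged, limma adjusted p = 0.177) and at -0.06 in SUM159. VLDLR, a lipoprotein receptor with a low signal, had 0.11 in T47D and -0.31 in SUM159 (-0.17 without the array that stood apart).

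The direction of the 2 lines was then set gene by gene, since T47D and SUM159 share no arrays. In Aldefluor+ cells 14 of 31 genes had opposite signs (45.2%, against 51.1% of all genes), and in Aldefluor- cells 15 of 31 did (48.4%, against 48.6%). Opposite signs were thus about as common as among all genes. Their orientation was one-sided. In Aldefluor+ cells all 14 were above 0 in T47D and below 0 in SUM159 (25.5% of all genes) and 0 the other way (25.6%). In Aldefluor- cells 13 were above 0 in T47D and below 0 in SUM159 (25.4%) and 2, ATF3 and FGF21, the other way (23.3%). The excess of one orientation follows from the counts above 0 in each line. These were 21 in T47D and 7 in SUM159 in Aldefluor+ cells (48.2% and 48.3% of all genes). In Aldefluor- cells they were 22 and 11 (49.9% and 47.8%). Across the 31 genes the ID8 differences of the lines had a Pearson correlation of 0.205 in Aldefluor+ and 0.347 in Aldefluor- cells. Over all genes it was -0.037 and 0.042. The T47D response exceeded the SUM159 response in 29 of 31 genes in Aldefluor+ cells (49.7% of all genes), in 27 in Aldefluor- cells (51.9%) and in 28 on average (50.8%), with medians of 0.32, 0.22 and 0.25. Over the fits that left out an experiment or the array that stood apart, these counts were 23 (without experiment 3) to 29, 24 to 27 and 26 to 30. Those counts are descriptions of a list chosen with earlier results known, and no test was made over the list.

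In single fractions no line difference passed. All genes were called at 0.33% in Aldefluor+ and 0.067% in Aldefluor- cells. At an unadjusted limma p under 0.05, 9 members were higher and 0 lower in Aldefluor+ cells (5.9% and 5.41% of all genes). In Aldefluor- cells 6 were higher and 0 lower (3.54% and 3.18%). On average 11 were higher and 0 lower (5.69% and 5.19%). ID8 and DMSO arrays were separate, with ID8 above, for 11 members in T47D Aldefluor+ cells (10.5% of all genes) and 8 in T47D Aldefluor- cells (8.38%), and with ID8 below for 0 (10.7%) and 1 (8.15%). In SUM159, ID8 lay below for 9 members in Aldefluor+ cells (9.37%) and 7 in Aldefluor- cells (9.98%), and above for 0 (9.31%) and 3 (8.88%). Across all 6 pairs of an experiment and fraction, ID8 was higher in T47D for 7 members (3.55% of all genes) and lower in SUM159 for 5 (3.13%). The 7 were EIF4EBP1, ASNS, ALDH18A1, ALDH1L2, XPOT, GDF15 and STC2. The 5 were PPP1R15A, DDIT4, SESN2, STC2 and ADM2, the last at a mean signal of 2.33.

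Over 465 pairs of the 31 genes, the correlation of the residuals left by the groups and experiments had a mean of 0.118, against 0.002 over all pairs of genes, on 12 residual degrees of freedom. The highest value, 0.811, was that of NUPR1 with EIF4EBP1, and ASNS with PSAT1 had 0.792. The lowest, -0.745, was that of PSPH with CBS. The pairs over all genes include the 49.0% of named genes with a mean signal below 2, against 2 of the 31. Genes of higher signal were not compared alone. These correlations are descriptions over arrays that share experiments. They include the array that stood apart and were not computed without it. In SUM159 Aldefluor+ cells the ID8 minus DMSO pairs of experiments 2, 3 and 4 were -1.22, -1.23 and -0.04 for NUPR1. For EIF4EBP1 they were -0.94, -1.13 and 0.13. How far the correlations rest on that array was not tested.

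Between Aldefluor+ and Aldefluor- cells no member passed in either line or treatment (limma), where 0.366% of all genes were called in T47D with ID8, 0.152% in T47D with DMSO, 0.201% in SUM159 with ID8 and 0.0223% in SUM159 with DMSO. At an unadjusted limma p under 0.05, 1 member was higher and 1 lower in T47D with ID8 (4.49% and 4.44% of all genes), and 1 was lower in SUM159 with ID8 (4.14%). A count of 1 of 31 is near these shares. With DMSO none differed in either line, where 8.96% of all genes did in T47D and 7.95% in SUM159, in either direction. In T47D with ID8, PSAT1 had -0.65 and ATF3 0.59. In SUM159 with ID8, 29 of 31 lay below 0 in Aldefluor+ cells (51.1% of all genes), with a median of -0.18, against 19 of 31 with DMSO (51% of all genes; median -0.07). With ID8 the median was -0.096 and 22 of 31 lay below 0 without experiment 3. With DMSO the direction of the median turned, to 0.020 without the array that stood apart and 0.018 without experiment 4, with 16 of 31 above 0 in both. In T47D 16 of 31 lay below 0 with ID8 (51.2% of all genes) and 16 with DMSO (49.4%). The difference of the ID8 response between fractions passed for no member in T47D (limma, 0% of all genes called) or SUM159 (0.00447%), with NUPR1 and TRIB3 in SUM159 (3.59% of all genes lower) and PSAT1 in T47D (3.09%) at an unadjusted p under 0.05, all lower in Aldefluor+ cells.

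Other genes of the pathway, in lists chosen with earlier results known, were read in the same fits. The 10 amino acid transporters linked to ATF4 had 9 of 10 line differences above 0 (median 0.25), and 0 passed, with 3 higher at an unadjusted limma p under 0.05. Among all genes 50.8% of these line differences lay above 0, and 5.69% were higher at that unadjusted p. In T47D Aldefluor+ cells 5 of 10 lay above 0 (48.2% of all genes), with a median of 0.02. At an unadjusted limma p under 0.05, 0 were higher and 2 lower there (5.31% and 5.46% of all genes). In T47D Aldefluor- cells 8 lay above 0 (49.9% of all genes), with a median of 0.16. In SUM159, 0 lay above 0 in Aldefluor+ cells (median -0.27, 48.3% of all genes above 0) and 3 in Aldefluor- cells (median -0.17, 47.8%). SLC7A5, a carrier of large neutral amino acids, had the largest line difference, 0.66, with 0.16 in T47D and -0.50 in SUM159, and SLC3A2, its heavy chain, had 0.57. SLC7A11, the cystine carrier, fell in Aldefluor+ relative to Aldefluor- T47D cells with ID8 (-0.94 ± 0.161 SE, limma adjusted p = 0.0122), a call lost without experiment 5, 6 or 7 (-1.07, -0.91 and -0.85, limma adjusted p = 0.0939, 0.177 and 0.158) and in T47D arrays alone (adjusted p = 0.0637).

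Transfer RNA synthetases had a median line difference of 0.08 (14 of 19 above 0, 0 passed, 4 higher at an unadjusted limma p under 0.05). For this and the next lists, the shares of all genes were 50.8% above 0 and 0.647% passed. Unadjusted, 5.69% of all genes were higher and 5.19% lower. The eIF2 kinases and eIF2B subunits had 0.08 (8 of 13, 0 passed, 2 higher and 1 lower unadjusted), with EIF2AK3, the kinase PERK, at 0.64. The XBP1 and ATF6 arm of the unfolded protein response had -0.07 (6 of 16, 0 passed, 2 higher and 1 lower unadjusted). Mitochondrial chaperones and proteases had 0.07 (4 of 6, 0 passed, 0 unadjusted) and p53 targets -0.02 (7 of 15, 0 passed, 1 higher unadjusted). NRF2 targets had -0.05 (3 of 8), and NQO1, a quinone reductase, passed with 0.55 ± 0.098 SE (limma adjusted p = 0.0151), and fell in SUM159 (-0.33, adjusted p = 0.0379). Its line difference lost the call in each of the 6 fits that left out an experiment (limma adjusted p from 0.0633 to 0.128), and its SUM159 call was lost in those fits and without the array that stood apart (adjusted p from 0.0546 to 0.317), in SUM159 arrays alone (0.167) and over all probe sets (0.0745). Of the p53 targets, FAS and TP53INP1 rose in T47D (0.63 and 0.57, limma adjusted p = 0.0225 and 0.0404). Over all genes 0.505% were called in the T47D average and 0.688% in that of SUM159. The FAS call was lost without experiment 2, 5, 6 or 7 (limma adjusted p from 0.0542 to 0.24), and that of TP53INP1 without experiment 2, 4, 5, 6 or 7 (adjusted p from 0.0565 to 0.315). Over all probe sets both were lost (limma adjusted p = 0.0507 and 0.0872), and TP53INP1 also in T47D arrays alone (0.0662). Without an experiment of the other line, the differences of NQO1 in SUM159 and of FAS and TP53INP1 in T47D were unchanged. Only the shared spread and the adjustment over genes changed there.

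**Figure D4:**
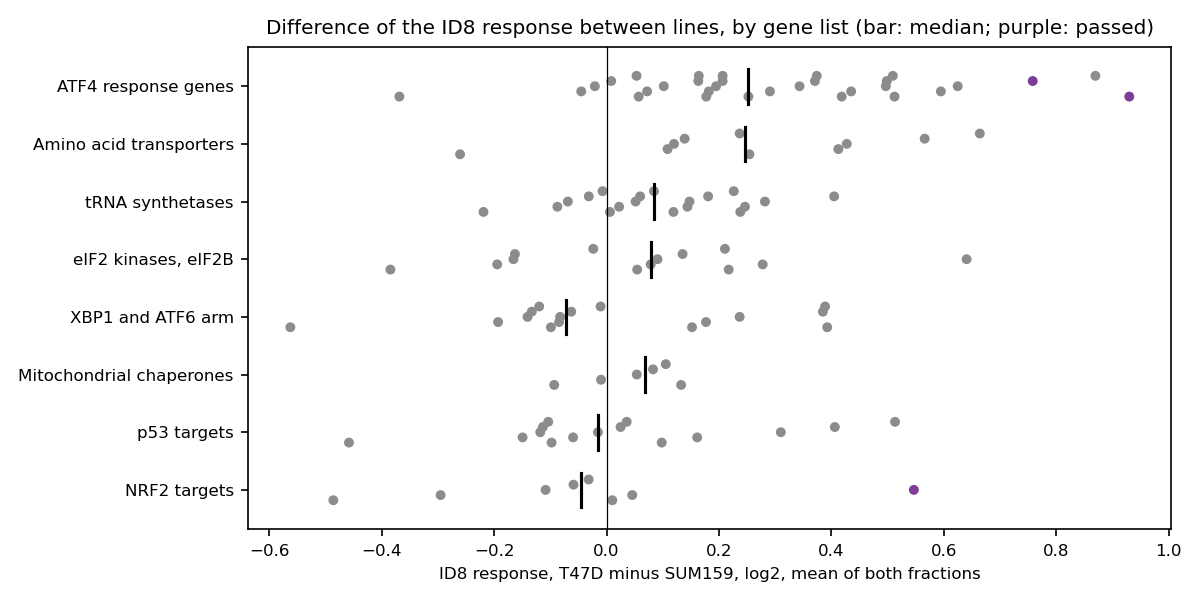
T47D minus SUM159 difference of the ID8 response, averaged over both fractions (log2, horizontal axis), for each gene of 8 lists, with a bar at the median and genes that passed in purple. The medians of the ATF4 response genes and the transporters are both 0.25, and those of the other 6 lists lie between -0.07 and 0.08.

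RNA yield per sorted cell, computed from the amounts in the labels, did not move one way with ID8 in either line. ID8 was the higher in 2 of 3 T47D Aldefluor+ pairs, 1 of 3 T47D Aldefluor- pairs and 2 of 3 pairs in each SUM159 fraction. The yield was 17.3 ± 4.43 pg with ID8 and 19.3 ± 1.05 pg with DMSO in T47D Aldefluor+ cells, and 11.8 ± 3.15 pg with ID8 and 13.8 ± 3.03 pg with DMSO in T47D Aldefluor- cells (SD, n = 3). In SUM159 it was 14.3 ± 1.79 pg with ID8 and 12.9 ± 0.173 pg with DMSO in Aldefluor+ cells, and 12.7 ± 2.17 pg with ID8 and 10.6 ± 1.31 pg with DMSO in Aldefluor- cells. The paired log2 ratios, ID8 over DMSO, were -0.19 ± 0.383 and -0.24 ± 0.226 in T47D and 0.14 ± 0.194 and 0.26 ± 0.415 in SUM159 (SD), each within about 1 SD of 0. The T47D Aldefluor+ mean rests on experiment 5, with 12.3 pg with ID8 and 19.1 pg with DMSO. The amounts collected did differ with ID8. In T47D every ID8 sample had fewer cells and less RNA than its DMSO pair. RNA there was 590 to 1303 ng with ID8 and 1145 to 1887 ng with DMSO. In SUM159 every pair but 1 had more cells and more RNA with ID8. RNA was 1363 to 5885 ng with ID8 and 863 to 2310 ng with DMSO. The exception was the Aldefluor- pair of experiment 2, at 1363 ng with ID8 and 1992 ng with DMSO. The part of these amounts and of the yield in the results above was not tested.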

How the data were processed

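Total RNA from sorted T47D and SUM159 cells was amplified and hybridised to 24 Affymetrix Human Gene ST 2.1 arrays, per the labels' protocols. The deposited values are log2 signals from RMA, per the submitters' processing notes, and the authors removed effects of experiment and processing batch with ComBat, per the labels' design text. Not given in the sources used here were the versions of these tools and the batches and covariates entered in ComBat. Values of the series matrix were used as deposited. Of 53617 probe sets, 23871 had 1 gene symbol in the platform's annotation table, 1842 had several and 27904 had none, and only the first kind was named. RefSeq (GRCh38.p14) supplied the current symbol, by gene number, for 22569 of them.

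The test was limma 3.58.1 in R 4.3.3 (lmFit and eBayes), fitted to the 24 arrays together with a mean for each of 8 groups and a block for each experiment nested in its line, leaving 12 residual degrees of freedom. P-values were adjusted by Benjamini-Hochberg over 22395 genes per comparison, with a threshold of 0.05. Samples of a line with the same experiment number are paired because the labels name the experiments as separate, and the adjustment had removed the experiment means. No count model, filter on low signal or pseudocount was used. The fit was also run on simulated data, only for the ID8 difference in Aldefluor+ cells and with changes larger than those called here. Averages over fractions and line differences were not simulated.

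The members, the lists and the rule for naming genes were chosen with earlier results of these data known. By that rule, array values are given for members that passed any comparison and for ATF4, DDIT3, ASNS, TRIB3 and CHAC1. Other genes were named only from 7 pathway lists, up to 4 per list, those that passed first and then those of largest size. NUPR1, PSAT1 and ALDH1L2 were added after their values were seen. Alternatives were no experiment block, trended and robust moderation, genes of mean signal at least 2, the mean of a gene's probe sets, all probe sets, quantile normalization, each line alone, and each experiment and the array that stood apart left out. Promoters were searched with Python 3.11.15.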

Additional observations from a re-analysis of the deposited data

Results flagged for a closer look

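The difference of the ID8 response between the lines, T47D minus SUM159 and averaged over both fractions, was itself tested by an interaction term, and STC2 (0.758 on the log2 scale) and DDIT4 (0.93) passed it. STC2 was higher with ID8 in 6 of 6 T47D pairs and lower in 6 of 6 SUM159 pairs. DDIT4 was lower in 6 of 6 SUM159 pairs. With 3 arrays per group, no gene's values were screened for outliers within a group.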

How the results depend on the processing

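Without the experiment as a replicate block, the numbers of members called by limma (with the block in brackets) were 3 (0) in SUM159 Aldefluor+ cells, 2 (0) in T47D Aldefluor+ cells, 4 (0) for the SUM159 average, 4 (2) for the T47D average, 3 (0), 1 (0) and 5 (2) for the line difference in Aldefluor+ cells, in Aldefluor- cells and averaged, and 1 (0) for the T47D fractions with ID8. Over all genes it raised the calls to 397 (54) in SUM159 Aldefluor+ cells and 530 (84) in T47D Aldefluor+ cells. They rose to 669 (154) for the SUM159 average and 562 (113) for the T47D average. For the line difference they rose to 582 (74) in Aldefluor+ cells, 82 (15) in Aldefluor- cells and 648 (145) averaged. Between the T47D fractions with ID8 they rose to 325 (82). The batch adjustment had already removed the experiment means, so this fit without the block overstates its degrees of freedom. Trended and robust moderation gave 1 in T47D Aldefluor+ cells, 3 for the SUM159 average, 4 for the T47D average, and 3, 1 and 5 for the line difference in Aldefluor+ cells, in Aldefluor- cells and averaged. Calls over all genes rose too, to 163 (84), 298 (154), 226 (113), 232 (74), 23 (15) and 263 (145) in the same order. With a mean signal of at least 2 it was 1 in T47D Aldefluor+ cells, 1 for the SUM159 average and 2 for the line difference in Aldefluor+ cells. All genes had 131 (84), 327 (154) and 198 (74) calls there. That fit held fewer genes, since 49.0% of named genes had a mean below 2. Over all probe sets the T47D average and the averaged line difference each kept 1, where 60 (113) and 78 (145) of all genes were called. T47D arrays alone gave 0 for the T47D average, with 60 (113) over all genes. Leaving out an experiment or the array that stood apart gave 0 to 1 for the SUM159 average, 0 to 2 for the T47D average, 0 to 2 for the line difference in Aldefluor+ cells and 0 to 3 averaged, and 0 in each of the other comparisons of ID8 and of fractions. All genes had 45 to 158 (154) calls for the SUM159 average and 4 to 114 (113) for the T47D average in these fits. For the line difference they had 15 to 83 (74) in Aldefluor+ cells and 18 to 156 (145) averaged. Genes with opposite signs numbered 12 to 18 in Aldefluor+ and 13 to 17 in Aldefluor- cells over all alternatives. The calls of STC2, DDIT4 and GDF15 kept their direction under every alternative run. Leaving out an experiment of 1 line left the differences within the other line unchanged. The cause of the lost calls was otherwise not tested. Array number, low signal and the prior batch adjustment limit these results.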
